A study of Homo sapiens with 9 samples.

Results

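*CPA4* and *OLR1* are a pair of genes that stood among the largest rises after *FOS* editing in A549, a line of human lung adenocarcinoma cells. They were taken as 2 of the 26364 gene names in the table of read counts, and the values that chose them were the fold changes of *FOS*-edited cells against cells with a scramble guide. Those values are therefore described here without a test. *CPA4* and *OLR1* were also read in 4 libraries that did not enter those fold changes, those of cells with and without the *LOC388942-ALK* (*LA*) intergenic fusion. Only that comparison was tested for them, although earlier results of these data were known when they were chosen.

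*CPA4* encodes a secreted metallocarboxypeptidase of the M14 family. It is made as a proenzyme and, once cleaved, removes hydrophobic residues one at a time from the carboxyl end of peptides. *OLR1* encodes LOX-1, a C-type lectin on the cell surface that binds and takes up oxidized low density lipoprotein, is best known from endothelial cells and macrophages, and signals through NADPH oxidase and NF-κB. FOS is the partner of JUN in AP-1, a transcription factor that binds the palindromic element TGANTCA, and the *FOS* gene is switched on within minutes of a growth signal.

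RNA-seq of polyA RNA was done in 9 A549 libraries. The control group held 2 libraries whose genotype is labelled WT, and the labels do not say whether those cells carried Cas9. The *LA* group held 2 libraries of cells that had received the guides sgLOC388942 and sgALK. The sgScr group held 3 libraries and the sg*FOS* group 2 libraries, all of them carrying sgLOC388942 and sgALK plus either the scramble guide or a guide against *FOS*. All groups other than control thus share the guides that made the fusion. In the methods of the study, the parental cells were Cas9-expressing A549 cells described as free of *ALK* fusions, the guides came by lentivirus, and fusion cells were grown out as single-cell clones by dilution. The sources used here do not say whether the *LA*, sgScr and sg*FOS* libraries came from 1 clone, nor which *FOS* guide each sg*FOS* library received. Nothing says that replicates were separate cultures, so that p-values measure only the spread between these libraries, which may be technical. Total counts ranged from 14507228 to 20456341 a library.

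On GRCh37, the build called hg19 to which the reads were aligned, *CPA4* (ENSG00000128510) spans chr7:129932974-129964020 on the plus strand, within band 7q32, with 11 exons in its canonical transcript of 2790 bases, of which 1263 are coding. *OLR1* (ENSG00000173391) spans chr12:10310900-10324737 on the minus strand, within the natural killer gene complex of band 12p13, with 6 exons in a canonical transcript of 2456 bases, of which 819 are coding. The gene *TMEM52B* lies on the opposite strand from position 10323141 to 10344403 and shares 1597 bases with *OLR1*, at its 5′ end. The libraries were stranded, but the strand setting of the counting is not given in the sources used here, and reads from the shared bases cannot be told apart between the 2 genes without it.

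The 250 bases before the start of *CPA4* are shown because they hold 2 copies of the AP-1 element while the cells compared differ in *FOS*. The sequence is that of RefSeq on GRCh38.p14, chr7:130292911-130293160, plus strand, and capitals mark the matches to TGANTCA.
*CPA4* promoter: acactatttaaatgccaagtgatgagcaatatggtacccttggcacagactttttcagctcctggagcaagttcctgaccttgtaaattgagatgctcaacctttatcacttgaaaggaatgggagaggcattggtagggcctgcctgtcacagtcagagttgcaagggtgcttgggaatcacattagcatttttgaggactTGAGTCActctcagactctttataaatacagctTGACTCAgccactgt
The matches read TGAGTCA, at 48 to 42 bases before the start, and TGACTCA, at 15 to 9 bases before it. Both strands were searched, and TGANTCA reads the same on either. A TATAAA match lies between them, at 28 to 23 bases before the start, and overlaps a match on the other strand at 30 to 25. A simple form of the NF-κB element (GGG, any 5 bases, then CC) had no match in these letters. Of 35116 RefSeq promoter windows of the same length, 6.57% held at least 1 TGANTCA and 0.402% (141 windows) held 2 or more, while 10.7% held TATAAA and 54.4% held the NF-κB form. A match is a description of letters, and binding was not measured in these data. The promoter of *OLR1* is not analysed here.

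*FOS* itself was read first, since it checks the labels. Its counts were 167 and 155 in control libraries, 5448 and 1660 in *LA* libraries, 4198, 4037 and 3528 in sgScr libraries, and 1008 and 1113 in sg*FOS* libraries. *FOS* was lower in both sg*FOS* libraries than in every sgScr library, by a log2 fold change of -1.48 (SE 0.044, adjusted p = 2.0e-25 by edgeR's quasi-likelihood test), and higher in *LA* than in control by 4.41 (SE 0.54, adjusted p = 2.0e-05). Transcript of the edited gene thus remained at 71.5 ± 4.0 CPM (SD, n = 2) in sg*FOS* cells. CPM, the count of a gene per 1000000 counts of the library, was taken after TMM scaling, a factor that sets most genes level between libraries.

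*CPA4* was low in control and sgScr cells and several-fold higher in *LA* and sg*FOS* cells. Its counts were 53 and 44 in control, 115 and 339 in *LA*, 49, 52 and 29 in sgScr, and 129 and 139 in sg*FOS*. In TMM CPM these came to 3.33 and 2.59 in control, 7.08 and 18.7 in *LA*, 2.35, 2.55 and 1.68 in sgScr, and 8.78 and 9.28 in sg*FOS*. The sg*FOS* libraries lay close together and far above all sgScr libraries, whereas the *LA* libraries lay apart, with replicate 2 at 2.64 times replicate 1. In bulk RNA such as this, more cells with a transcript and more of it per cell cannot be told apart. The group means were 12.9 ± 8.22 in *LA*, 9.03 ± 0.350 in sg*FOS*, 2.96 ± 0.521 in control (SD, n = 2 each) and 2.20 ± 0.456 in sgScr (SD, n = 3), in that order. Of the neighbours in the order, *LA* and sg*FOS* overlapped, since *LA* replicate 1 lay below both sg*FOS* libraries. sg*FOS* and control did not overlap, with means 3.05-fold apart. Control and sgScr were parted only by 2.59 against 2.55 CPM and did overlap when scaled by library size alone, at 2.56 against 2.58, so that they did not differ beyond their spread.

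*OLR1* had another order. Its counts were 65 and 126 in control, 158 and 1154 in *LA*, 38, 55 and 34 in sgScr, and 92 and 62 in sg*FOS*. In TMM CPM these came to 4.08 and 7.43 in control, 9.73 and 63.7 in *LA*, 1.82, 2.701 and 1.97 in sgScr, and 6.26 and 4.14 in sg*FOS*. *LA* replicate 2 stood alone, at 6.54 times *LA* replicate 1, while the sgScr libraries were the lowest of all 9. The means were 36.7 ± 38.1 in *LA*, 5.76 ± 2.36 in control, 5.20 ± 1.503 in sg*FOS* (SD, n = 2 each) and 2.17 ± 0.469 in sgScr (SD, n = 3). *LA* and control did not overlap, control and sg*FOS* did, and sg*FOS* and sgScr did not. The rise with *FOS* editing thus took *OLR1* to 0.903 of its mean in control cells, whereas it took *CPA4* to 3.05 times that level.

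In the contrast that chose them, the log2 fold change of sg*FOS* against sgScr was 2.03 (SE 0.18) for *CPA4*, a ratio of mean CPM of 4.11, and 1.27 (SE 0.22) for *OLR1*, a ratio of 2.40. No test is given for either. Over the 14196 genes tested, 12.2% were called higher and 10.5% lower at an adjusted p under 0.05, and every sg*FOS* library lay above every sgScr library for 22.6% of genes, as it did for both of these. *CPA4* ranked 4 by fold change among all genes tested, just above *UBD* at 1.91, a gene with a mean of only 8.20 counts. Among the 11760 genes that averaged 50 counts or more it ranked 1, and *OLR1* ranked 4, after *CD70* at 1.32 and *IL32* at 1.31 and before *ABCA12* at 1.25 and *GBP3* at 1.23. Without that minimum *OLR1* ranked 47, between *CYGB* at 1.28 and *ABCA12*. The size of the *OLR1* difference leaned on 1 library, being 0.94 without sg*FOS* replicate 1 and 1.54 without sg*FOS* replicate 2.

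Whether *CPA4* and *OLR1* also differ between *LA* and control was tested in the libraries of these groups. *LA* cells had also received the fusion guides, and fusion cells were grown from single-cell clones in the methods of the study. Fusion, guides and clone cannot be told apart in this comparison, and "with the fusion" stands for *LA* against control throughout. *CPA4* rose by 2.08 on the log2 scale (SE 0.56, adjusted p = 0.0117 by edgeR's quasi-likelihood test), 4.35-fold by mean CPM. *OLR1* rose by 2.63 (SE 0.61, adjusted p = 0.00492), 6.38-fold by mean CPM. Both *LA* libraries lay above both control libraries for each gene. Over the 14425 genes tested, 9.57% were called higher and 9.94% lower, and every *LA* library lay above every control library for 34.0% of genes. By fold change *CPA4* ranked 534 and *OLR1* ranked 279 of all genes tested, and among the 11942 that averaged 50 counts or more they ranked 292 and 119.

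Both calls rested on *LA* replicate 2. Without it the difference was 1.24 for *CPA4* (adjusted p = 0.431) and 0.73 for *OLR1* (adjusted p = 0.654), and without *LA* replicate 1 it was 2.60 (adjusted p = 0.0195) and 3.40 (adjusted p = 0.000199). *OLR1* also missed the threshold without control replicate 1, at 2.24 (adjusted p = 0.0774). Library by library, *CPA4* in *LA* replicate 1 exceeded the control libraries by 1.09 and 1.45 on the log2 scale and in *LA* replicate 2 by 2.49 and 2.85. For *OLR1* the same differences were 1.25 and 0.39 in *LA* replicate 1 and 3.96 and 3.10 in *LA* replicate 2. Between the *LA* libraries alone, *OLR1* was higher in replicate 2 by 2.695, the 45th highest such difference of the 14425 genes, and *CPA4* by 1.39, the 537th. *FOS* ran the other way, at 336 CPM in *LA* replicate 1 and 91.6 in *LA* replicate 2.

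Fold changes in this comparison went up with transcript length across genes (Spearman's rho 0.523, a description across genes, which are not independent replicates). After a correction for length and GC content the differences were 2.24 for *CPA4* (adjusted p = 0.0219) and 2.87 for *OLR1* (adjusted p = 0.0337).

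**Figure D1:**
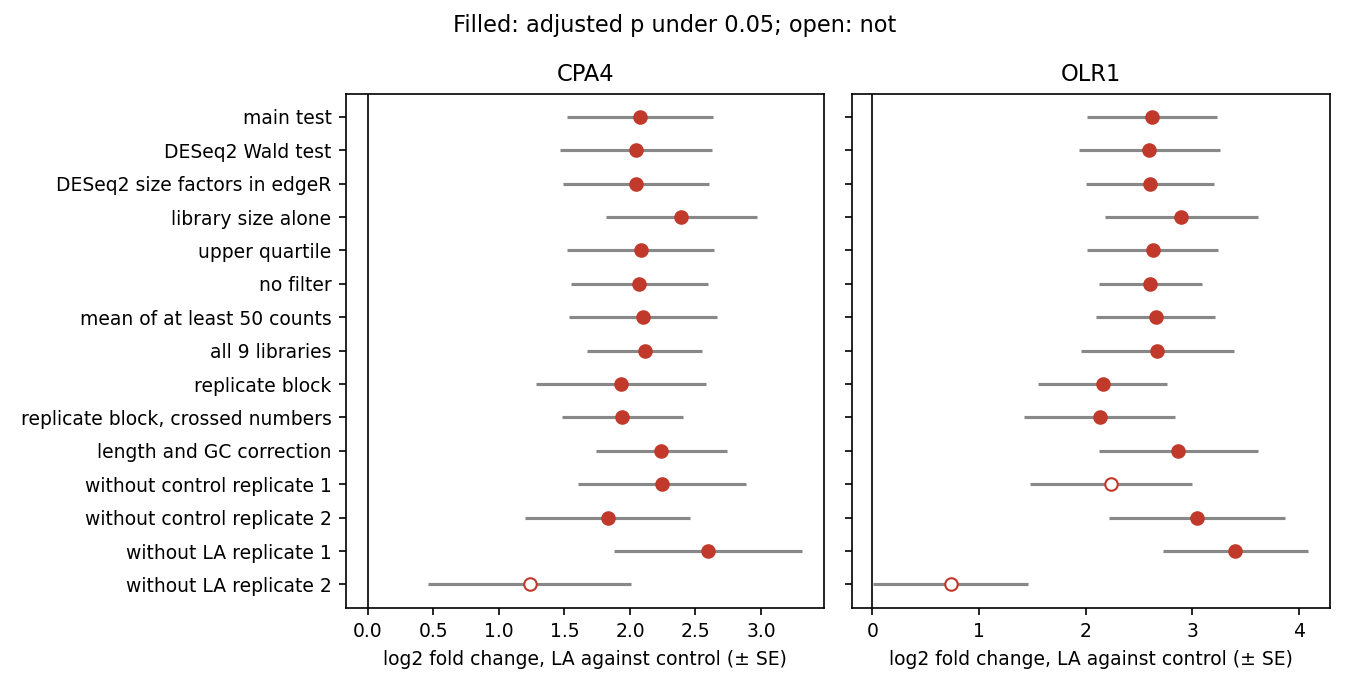
Log2 fold change of *LA* against control (points, with bars for ± 1 SE) for *CPA4* and *OLR1* under the main test and each alternative setting, filled where the adjusted p was under 0.05. All values are above 0, and those without *LA* replicate 2 (1.24 and 0.73) are the lowest and open.

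In the 13877 genes tested in both comparisons, 263 (1.90%) were called higher in both, which is 19.1% of the 1380 genes called higher with the fusion and 15.2% of the 1731 called higher with *FOS* editing. These totals include *CPA4* and *OLR1*, whose place among the genes higher with *FOS* editing the rule fixed, so that their being in both lists says no more than their test with the fusion. The comparisons share no library, although the sgScr and sg*FOS* cells carry the fusion guides that the *LA* cells carry. The sgScr cells, which have those guides and *FOS* at 201.5 ± 3.19 CPM (SD, n = 3), had less of both transcripts than the *LA* cells, by a ratio of mean CPM of 5.87 for *CPA4* and 16.9 for *OLR1*. These ratios lean on *LA* replicate 2. *LA* replicate 1 had 7.08 CPM of *CPA4* and 9.73 of *OLR1*, against sgScr means of 2.20 and 2.17. These groups were compared without a test, and whether they were grown and sequenced together is not given in the sources used here, so that the scramble guide and a batch cannot be told apart.

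The 2 genes did not keep a fixed proportion. Per kilobase of transcript, the level of *OLR1* was 1.39 and 3.25 times that of *CPA4* in control, 1.56 and 3.87 times in *LA*, 0.881, 1.202 and 1.33 times in sgScr, and 0.810 and 0.507 times in sg*FOS*. *OLR1* was thus the more abundant transcript in control and *LA* cells and the less abundant in sg*FOS* cells. Over the 9 libraries the log2 CPM of *CPA4* and *OLR1* had a Pearson's r of 0.81, with *LA* replicate 2 the highest point of both.

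Calls of single listed genes given below were often lost when 1 library was left out. A fit with fewer libraries can lose a call although the difference hardly moves. With *FOS* editing *COPG2* was at -0.26 with all libraries, -0.28 without sg*FOS* replicate 1 and -0.24 without sg*FOS* replicate 2. *SSC5D* did move, from -1.36 to -0.92 without sg*FOS* replicate 1. With the fusion, *FOS*, *NTS*, *VLDLR*, *ROCK2*, *HIF1A* and *CDH1* were called whichever library was left out. In contrast, *CPD*, *RARRES1*, *CPVL*, *AGER*, *CLEC2B*, *CXCL8*, *ADAM17*, *CYBA*, *JUN*, *KLF2*, *CD14* and *PCSK1N* each lost the call without at least 1 library. With *FOS* editing the same was so of *CPE*, *MEST*, *COPG2*, *SSC5D*, *CLEC2D*, *NOXO1* and *ADAM10*, and the other genes named as called kept it.

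The M14 carboxypeptidases are secreted, membrane-bound and cytosolic enzymes that trim peptides or tubulin from the carboxyl end. Of 23 family members 11 had at most 3 counts in every library, and 9 were tested. *CPA1* had 0 counts throughout and *CPA5* had 2 counts in *LA* replicate 1 and none elsewhere, so that both of these neighbours of *CPA4* were at or near 0. Per kilobase, the mean level of *CPA4* was 1.06 CPM in control, 4.62 in *LA*, 0.787 in sgScr and 3.24 in sg*FOS*, which placed it 6th, 4th, 7th and 4th of the family. *AGBL5*, a tubulin deglutamylase, and *CPD*, a carboxypeptidase of the trans-Golgi network, were at 15.9 and 32.02 in *LA*.

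With the fusion 2 of the 9 tested M14 genes rose, *CPA4* and *CPD*, and none fell, against 9.57% and 9.94% of all genes. The median was 0.89 against 0.044 for all genes. After the length and GC correction it was 0.19 against -0.014, and 1 of the 9 was called. *CPD* rose by 1.60 (SE 0.44, adjusted p = 0.0133 by edgeR) but by 0.82 (adjusted p = 0.0777) after the length and GC correction. Without *LA* replicate 2 the difference was 1.24 for *CPA4* and 1.71 for *CPD*. Without *LA* replicate 1 it was 2.60 and 1.47. With *FOS* editing, leaving out *CPA4*, 2 of 8 were called higher and 2 lower, against 12.2% and 10.5% of all genes. The median was -0.11 against -0.0015 for all genes. *CPM*, a membrane enzyme that removes basic residues, rose by 0.69 (SE 0.11, adjusted p = 1.6e-05), and *CPE*, which trims prohormones, rose by 0.58 (SE 0.19, adjusted p = 0.0275, but 0.164 with DESeq2). *CPD* fell by 0.15 (SE 0.035, adjusted p = 0.00156, but 0.0532 after the length and GC correction) and *AGTPBP1*, which shortens polyglutamate chains on tubulin, fell by 0.26 (SE 0.065, adjusted p = 0.00254). These differences stand beside the 2.03 of *CPA4*, the member that this contrast chose.

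Of the inhibitors and unrelated carboxypeptidases listed beside the family, 8 of 11 were tested with the fusion. Of these 2 rose and none fell, against 9.57% and 9.94% of all genes (median -0.064, and 0.41 after the length and GC correction). With *FOS* editing 7 were tested and none was called, against 12.2% of all genes higher and 10.5% lower (median 0.057). *LXN*, latexin, the carboxypeptidase inhibitor of vertebrates, differed by -0.33 (adjusted p = 0.64) and 0.15 (adjusted p = 0.249). *RARRES1*, its homologue, had counts of 114 and 308 in control, 700 and 1513 in *LA*, 168, 178 and 141 in sgScr, and 107 and 132 in sg*FOS*. It rose with the fusion by 2.28 (SE 0.49, adjusted p = 0.00316) and differed by -0.036 with *FOS* editing (adjusted p = 0.89). *CPVL*, a lysosomal serine carboxypeptidase, rose with the fusion by 2.78 (SE 0.82, adjusted p = 0.0208) from 4 and 8 counts to 53 and 35. In cells that also carry the fusion guides it had 3, 3 and 2 counts in sgScr and 2 and 5 in sg*FOS*. Without *LA* replicate 2 the differences were 1.74 for *RARRES1* and 3.12 for *CPVL*, and without *LA* replicate 1 *CPVL* was at 2.33.

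*CPA4* lies in the imprinted region of 7q32 with *MEST* and *KLF14*. The table held 16 genes of the region, of which 9 were tested. With the fusion *CPA4* alone was called higher and none lower, against 9.57% and 9.94% of all genes (median 0.35, and 0.11 after the length and GC correction). Without *LA* replicate 2 the difference of *CPA4* was 1.24. With *FOS* editing, leaving out *CPA4*, 2 of 8 were called higher and 1 lower, against 12.2% and 10.5% of all genes (median -0.094). *UBE2H*, a ubiquitin-conjugating enzyme, rose by 0.27 (SE 0.037, adjusted p = 6.3e-07), *MEST* rose by 0.19 (SE 0.064, adjusted p = 0.0304) and *COPG2*, a coatomer subunit, fell by 0.26 (SE 0.092, adjusted p = 0.038). With DESeq2 neither *MEST* (adjusted p = 0.187) nor *COPG2* (adjusted p = 0.184) was called, and *COPG2* was not called after the length and GC correction (adjusted p = 0.0758). *KLF14* had 0 counts in all libraries. *CPA5*, the next gene to the right, was thus at or near 0 where *CPA4* was high.

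Peptide precursors and their processing enzymes were listed as possible substrates and partners of secreted carboxypeptidases. With the fusion 2 of 14 tested rose and 5 fell, against 9.57% and 9.94% of all genes (median -0.96). After the length and GC correction 2 rose and 3 fell (median -0.24). Without *LA* replicate 2 the median was -1.41. *NTS*, the precursor of neurotensin, fell by 4.72 (SE 0.54, adjusted p = 7.3e-06), from 498 and 480 counts to 13 and 27. Its counts were 178, 154 and 143 in sgScr and 74 and 68 in sg*FOS*, which also carry the fusion guides. With *FOS* editing 2 of 13 rose and 2 fell, against 12.2% and 10.5% of all genes (median 0.12). *NTS* fell by 0.75 (SE 0.16, adjusted p = 0.000375), while *PCSK1N*, an inhibitor of prohormone convertase 1, rose by 0.69 (SE 0.086, adjusted p = 6.2e-08) and *FURIN*, a convertase of the secretory pathway, by 0.32 (SE 0.045, adjusted p = 6.5e-07).

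Scavenger receptors take up modified lipoproteins and other ligands. Per kilobase *OLR1* had a mean of 2.34 CPM in control, 14.9 in *LA*, 0.882 in sgScr and 2.12 in sg*FOS*, the 12th, 6th, 13th and 11th of 29 receptors listed. With the fusion 4 of 18 tested rose and 1 fell, against 9.57% and 9.94% of all genes (median 0.077). After the length and GC correction 4 rose and 0 fell (median 0.24). Without *LA* replicate 2 the median was -0.10. *VLDLR*, a receptor of native lipoproteins, rose by 2.63 (SE 0.49, adjusted p = 0.00144). *AGER*, a receptor for glycated proteins, fell by 2.42 (SE 0.73, adjusted p = 0.0231) but was at -1.51 (adjusted p = 0.138) after the length and GC correction. With *FOS* editing, leaving out *OLR1*, 4 of 16 were called higher and 4 lower, against 12.2% and 10.5% of all genes (median 0.062). *CD68*, a lysosomal receptor of the same ligand class, rose by 0.65 (SE 0.064, adjusted p = 2.9e-10). *SSC5D* fell by 1.36 (SE 0.46, adjusted p = 0.0293) and *SCARA5*, a ferritin receptor, by 0.70 (SE 0.076, adjusted p = 4.3e-09).

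**Figure D2:**
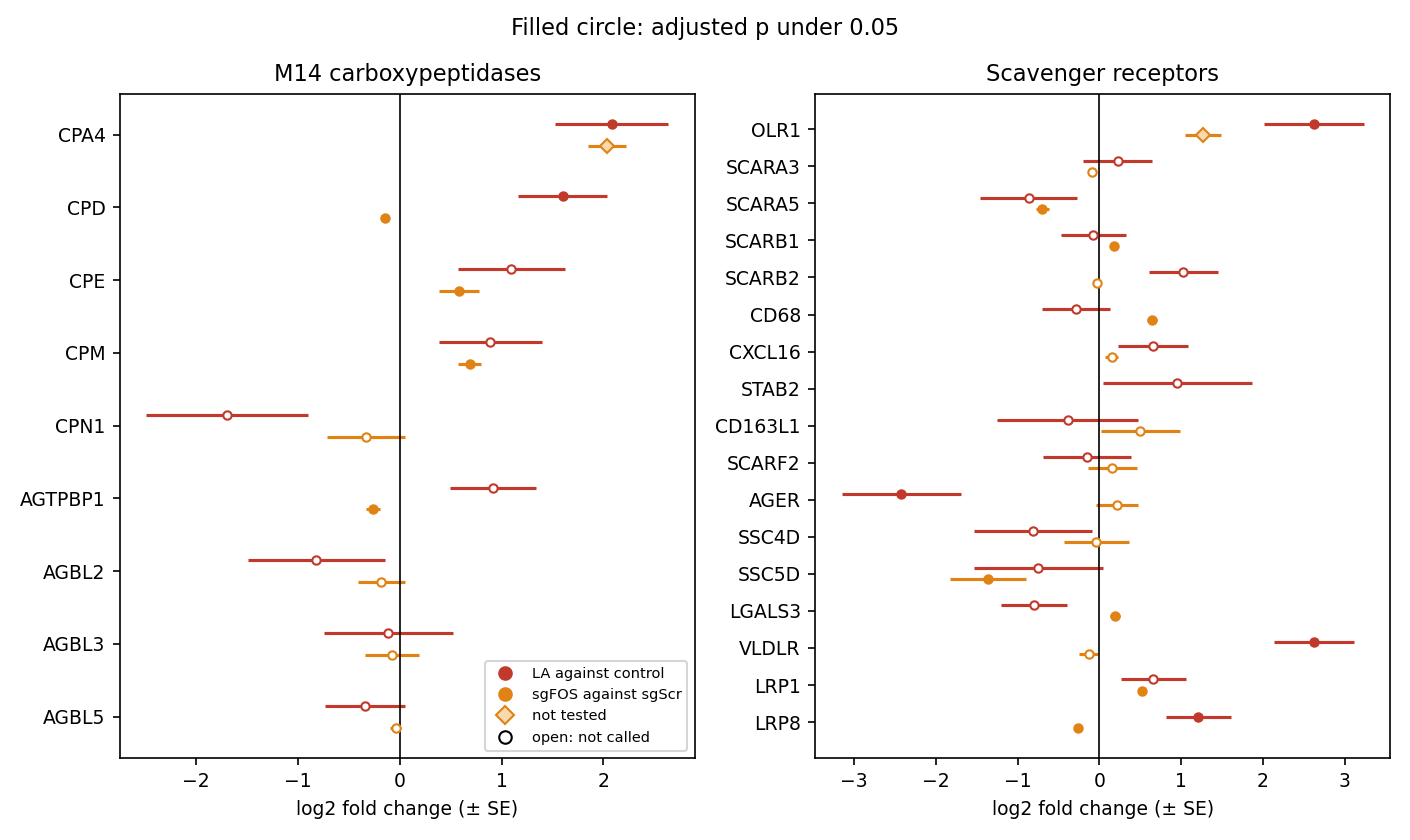
Log2 fold change (± SE) of 9 tested M14 carboxypeptidases (left) and 17 tested scavenger receptors (right) in *LA* against control (red) and sg*FOS* against sgScr (orange), filled where the adjusted p was under 0.05 and open where not, with diamonds for *CPA4* and *OLR1* in sg*FOS* against sgScr, where they were not tested. *CPA4* is at 2.08 and 2.03 and *OLR1* at 2.63 and 1.27, while no other member drawn exceeds 1 on the positive side in sg*FOS* against sgScr.

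Of 24 listed genes of the natural killer complex of 12p13 around *OLR1*, 14 had at most 3 counts in every library, 7 of them 0 throughout, and 7 were tested. *CLEC7A*, the beta-glucan receptor dectin-1, had at most 4 counts. With the fusion *OLR1* alone rose and *CLEC2B* alone fell, against 9.57% and 9.94% of all genes (median -0.11). *CLEC2B*, a lectin-like ligand of a natural killer receptor, fell by 2.44 (SE 0.69, adjusted p = 0.0166, but 0.0517 after the length and GC correction). Without *LA* replicate 2 the differences were 0.73 for *OLR1* and -2.34 for *CLEC2B*. With *FOS* editing, leaving out *OLR1*, none of 6 rose and 1 fell, against 12.2% and 10.5% of all genes (median -0.037). The 1 that fell was *CLEC2D*, another such ligand, by 0.83 (SE 0.26, adjusted p = 0.0175, but 0.118 with DESeq2). *GABARAPL1*, an autophagy gene of the cluster, differed by -0.11 (adjusted p = 0.894) and 0.073 (adjusted p = 0.48). *TMEM52B*, which shares bases with *OLR1*, had 6 and 17 counts in control, 6 and 66 in *LA*, 4, 6 and 4 in sgScr and 9 and 6 in sg*FOS*. Its highest value was thus also in *LA* replicate 2, at a small part of the 1154 counts of *OLR1* there.

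LOX-1 is cut from the cell surface by ADAM10, and its signal runs through small GTPases and NADPH oxidase to NF-κB, with *CCL2*, *CXCL8* and *ICAM1* among the known responders. Of 29 genes of this kind 20 were tested. With the fusion 4 rose and 1 fell, against 9.57% and 9.94% of all genes (median 0.35). After the length and GC correction 4 rose and 2 fell (median 0.076). Without *LA* replicate 2 the median was -0.13. *ROCK2* rose by 2.87 (SE 0.48, adjusted p = 0.000704), *CXCL8* by 1.77 (SE 0.46, adjusted p = 0.0101) and *ADAM17*, a related sheddase, by 1.62 (SE 0.45, adjusted p = 0.015), while *CYBA*, the p22phox subunit, fell by 2.23 (SE 0.49, adjusted p = 0.00353). After the length and GC correction *ADAM17* was at 1.05 (adjusted p = 0.0446) and *CYBA* at -1.40 (adjusted p = 0.0278). *ADAM10* was at 1.00 (adjusted p = 0.0876) and at 0.071 after the length and GC correction. *ICAM1* had counts of 503 and 325 in control against 325 and 2060 in *LA*, and *CCL2* had 1361 and 1503 against 1082 and 4851, so that both were high in *LA* replicate 2 alone, the library where *OLR1* was high.

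With *FOS* editing 6 of the 20 rose and 3 fell, against 12.2% and 10.5% of all genes (median 0.10). *NOXO1*, an organizer of NADPH oxidase, rose by 0.76 (SE 0.20, adjusted p = 0.00378), *CCL2* by 0.76 (SE 0.071, adjusted p = 8.2e-11), *ICAM1* by 0.63 (SE 0.076, adjusted p = 3.3e-08) and *CXCL8* by 0.55 (SE 0.066, adjusted p = 2.3e-08). *ADAM10* fell by 0.14 (SE 0.035, adjusted p = 0.00362) but was at -0.077 (adjusted p = 0.211) after the length and GC correction. The transcripts of *NOXO1*, *CCL2*, *ICAM1* and *CXCL8* were thus higher in the same libraries as *OLR1*, in a contrast that *OLR1* was chosen from.

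Among 12 transcription factors named for the control of *OLR1*, all tested, 5 rose with the fusion and none fell, against 9.57% and 9.94% of all genes. The median was 0.76, and 0.24 after the length and GC correction. Without *LA* replicate 2 it was 0.83. Besides *FOS*, *HIF1A* rose by 3.37 (SE 0.76, adjusted p = 0.00419), *JUN* by 2.18 (SE 0.44, adjusted p = 0.0023) and *KLF2* by 1.76 (SE 0.45, adjusted p = 0.00854). *HIF1A* had 107 counts in control replicate 1 against 2581 in control replicate 2, and its difference was 6.85 without control replicate 2 and was not called by DESeq2 (adjusted p = 0.13). With *FOS* editing *FOS* alone was called, as lower (median -0.043), against 12.2% of all genes higher and 10.5% lower. *JUN* was at -0.029 (adjusted p = 0.656).

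The genes whose profile over the 9 libraries was most like that of *CPA4*, by Pearson's r of log2 CPM among 11900 genes that averaged 50 counts or more, were *TNFRSF9* at 0.974, *HBEGF* at 0.969, *CDC42BPG* at 0.948, *BCAR1* at 0.947 and *MFGE8* at 0.947. *TNFRSF9*, the costimulatory receptor 4-1BB, had counts of 33 and 33 in control, 78 and 184 in *LA*, 40, 29 and 21 in sgScr and 69 and 58 in sg*FOS*. Those most like *OLR1* were *LBH* at 0.978, *CDC42EP3* at 0.977, *KSR2* at 0.975, *RAB15* at 0.975 and *GATM* at 0.970. *OLR1* ranked 126 for likeness to *CPA4* and *CPA4* ranked 276 for likeness to *OLR1*. *FOS* had r = 0.056 with *CPA4* and -0.13 with *OLR1*. These correlations describe 9 libraries of 4 groups that share their group and depth, with *LA* replicate 2 at one end for both genes, and by Spearman's rho only 2 of the 5 stayed among the top 5 for each. Of the like genes with a RefSeq promoter window, *TNFRSF9* and *BCAR1* held 1 TGANTCA each, and *HBEGF*, *MFGE8*, *LBH*, *CDC42EP3*, *KSR2* and *GATM* held 0.

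As a check of the cell type, 7 epithelial markers were detected in every group, with a summed level of 13566 to 23981 CPM in control, 7890 to 12792 in *LA*, 7035 to 7483 in sgScr and 8309 to 8547 in sg*FOS*. *CDH1* rose with the fusion by 2.28 (SE 0.41, adjusted p = 0.00123), the only one of the 7 called, against 9.57% and 9.94% of all genes. The median of the 7 was below 0, at -0.70, and at -0.26 after the length and GC correction. With *FOS* editing 5 of 7 rose and none fell, against 12.2% and 10.5% of all genes (median 0.23), among them *CLDN4* by 0.92 (SE 0.17, adjusted p = 4.9e-05) and *KRT19* by 0.86 (SE 0.042, adjusted p = 7.4e-19). *OLR1* is best known from endothelial cells and macrophages, and 15 of their markers summed to 57.8 to 79.4 CPM in control, 44.5 to 48.0 in *LA*, 44.5 to 48.1 in sgScr and 65.1 to 66.8 in sg*FOS*. Of these, *PTPRC*, *CD163* and *AIF1* had 0 counts in all 9 libraries and 8 of the 15 had at most 3 in every library. The endothelial marker *ESAM* had 30 to 87 counts a library, and the macrophage and leukocyte marker *ITGAM* had 14 to 102. In *LA* replicate 2, where *OLR1* was highest, *ITGAM* had 79 counts against 37 in *LA* replicate 1. The endothelial marker *CDH5* had 16 counts there and at most 4 in any other library. *LYZ* was highest in sgScr replicate 2, at 13 counts. Most of the sum came from *CD14* and *CD68*, of which *CD14* fell with the fusion by 1.31 (SE 0.43, adjusted p = 0.0342, but -0.50 with an adjusted p of 0.262 after the length and GC correction) and *CD68* rose with *FOS* editing as given above.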

How the data were processed

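RNA-seq was done in 9 A549 libraries, grouped by genotype from the sample labels. What the authors deposited is a table of raw counts, whole numbers of reads on each gene with no normalization. Their methods and processing notes give stranded mRNA libraries, 150-bp paired-end reads, alignment to hg19 with STAR 2.7.10b and DESeq2 1.26.0. How reads were assigned to genes, and whether by strand, is not given in the sources used here.

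These counts were tested with edgeR 4.0.16 in R 4.3.3 (TMM, filterByExpr, quasi-likelihood test, two-sided, Benjamini-Hochberg adjustment over all genes tested) on the libraries of each comparison alone. A gene was called at an adjusted p under 0.05. Levels are TMM-scaled CPM over the 9 libraries, and per kilobase of the longest GENCODE transcript on GRCh37 between genes. Of the gene names, 22494 matched the annotation directly and 1324 through an older symbol, and 97.0% of the genes tested for *LA* had a length. Python 3.11.15 was used for tables and figures. The tests were also run on simulated counts with known changes, and the outcome is not reported here.

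*CPA4*, *OLR1* and the 10 gene lists, written from general knowledge, were chosen with earlier results of these data known. Named from each list were at most 4 called genes a comparison, by fold change among those averaging 10 counts or more, and fixed neighbours and partners of *CPA4* and *OLR1*. Alternatives were DESeq2 1.42.0, its size factors, library size alone, upper quartile scaling, no filter, a minimum mean of 50 counts, a single fit of all 9 libraries, a replicate block, a length and GC correction (loess span 0.5), the threshold of the study's methods (absolute log2 fold change over 0.5 and p under 0.05) and leaving out each replicate. With 1 library left in a group, it was assumed to vary like the other group. Other experiments of the study were not analysed here. Some genes that the naming rule reached are not reported here, although the counts over lists include them.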

Additional observations from a re-analysis of the deposited data

How the results depend on the processing

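In *LA* against control and in sg*FOS* against sgScr, *CPA4* and *OLR1* kept their direction under every alternative run. With *LA* against control, both were called under all 10 alternatives that kept every library and tested by adjusted p, at 1.93 to 2.39 for *CPA4* (adjusted p = 0.0015 to 0.0347 by edgeR or DESeq2) and 2.13 to 2.90 for *OLR1* (adjusted p = 6.9e-06 to 0.0447). Leaving out 1 library gave 1.24 to 2.60 for *CPA4* and 0.73 to 3.40 for *OLR1*, the lowest without *LA* replicate 2, and *OLR1* without control replicate 1 was 2.24 (adjusted p = 0.0774). With sg*FOS* against sgScr, leaving out 1 library gave 0.94 to 1.54 for *OLR1*.

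Genes called with *LA* against control numbered 2814 in the main test, 6799 with all 9 libraries in the fit, 1519 with the replicate block, 4977 at the threshold of the study, and 253 (without *LA* replicate 2) to 5078 (without control replicate 2) with a library left out, with 432 without *LA* replicate 1 and 1304 without control replicate 1. Library size alone shifted the median of all genes by 0.284 and made 70.1% of the calls higher, against 49.0%. Genes called with sg*FOS* against sgScr numbered 3221 in the main test, 1825 with DESeq2, 818 at the threshold of the study and 1916 to 3518 with a library left out. With all 9 libraries in the edgeR fit the number was 0, with 444 at an unadjusted p under 0.05, where the spread of the *LA* and control libraries (biological coefficient of variation 0.329 against 0.0296) enters the fit. The causes of the other changes were not tested.

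Same-numbered libraries did not deviate together (correlations of -0.232 with *LA* against control, and -0.127 and 0.00683 with sg*FOS* against sgScr). With 2 libraries a group, both pairs of *LA* against control give the same value by construction. These values therefore cannot settle whether same-numbered libraries shared a batch. With the replicate block *CPA4* was at 1.93 (adjusted p = 0.0347) and *OLR1* at 2.16 (adjusted p = 0.00885), and in sg*FOS* against sgScr at 1.89 and 1.21, with 3150 genes called. With crossed numbers, tried after the data were seen, 3878 genes were called with *LA* against control.

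Counts of *CPA4* went down to 29 and of *OLR1* to 34 a library, and depth limits the precision of ratios at such counts.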
